A study of Mus musculus with 9 samples.

Results

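The protocadherin family was followed in mouse embryonic stem cells with and without Sirt6. Members were the 71 of 23366 rows of the gene count table whose symbol starts with Pcdh. They comprised 15 alpha rows, 22 beta rows, 22 gamma rows and 12 unclustered genes. The members were chosen by symbol, and the family was selected on its values in the comparison described here, so the calls below describe it and are not independent evidence of a direction. The cells were mouse embryonic stem cells of strain 129 SvJae F1 at passage 21, grown in DMEM with fetal bovine serum and leukaemia inhibitory factor (LIF). Wild-type cells and cells with SIRT6 knocked out were compared, each with 3 libraries of total RNA. SIRT6 is a histone deacetylase of the sirtuin class. The labels do not state how the knockout was made, whether it is 1 clone or several, or whether replicates came from separate cultures. Another group of 3 glucose-deprived wild-type libraries was not analysed here.

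Protocadherins are cadherin-repeat adhesion proteins of the cell surface, known chiefly from the nervous system. Genes of the alpha, beta and gamma clusters lie side by side on 1 chromosome. In the alpha and gamma clusters each variable exon carries its own promoter and is spliced to a shared set of constant exons, which encode a common cytoplasmic tail, while beta genes are single-exon units with no constant exons. Neurons choose a few of these promoters each, with the DNA-binding protein CTCF, the cohesin ring and DNA methylation taking part in the choice, and the resulting surface code lets a neurite tell its own branches from those of other cells. The unclustered genes are scattered over the genome, and many encode the delta-protocadherins, which act in adhesion, axon growth and cell sorting.

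Total counts ran from 20107037 to 29267115 per library. Sirt6 itself held 348, 341 and 342 wild-type counts and 12, 6 and 6 knockout counts, which follows the labels. Stem cell markers were abundant in both groups. Pou5f1, the OCT4 gene, had a mean of 1651 CPM in wild type and 1199 CPM after knockout. CPM are counts divided by TMM-adjusted library size and put on a common scale. The summed level of 7 stem cell markers ran from 4059 to 4581 CPM in wild type and from 4187 to 4836 CPM in the knockout. Single markers moved in both directions. In the edgeR test described below, 3 of the 7 were called lower, Pou5f1 among them, 2 higher and 2 neither. That test called 27.8% of all genes lower and 27.9% higher.

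Reads were assigned to gene symbols, and the annotation shows where symbols can share reads. In the GRCm38 annotation (GENCODE M21), 69 of the 71 rows were found, 59 of them on chromosome 18. All 13 annotated alpha rows shared exon sequence with other members, over 28.5% to 54.9% of their exon length, as did all 22 gamma rows, over 27.8% to 66.8%. Among the 22 beta rows only 2 did, Pcdhb21 and Pcdhb22, over at most 9.67% of their length, and none of the 12 unclustered genes did. Exons of genes outside the family, on either strand, also covered part of some rows and none of others. They covered all 2613 own bases of Pcdhga10 and 1927 of 3034 bases of Pcdhb12. Whether this altered the counts was not tested. If reads in the constant exons had been counted into every row of a cluster, no row could fall below that common number. The smallest count of any gamma row in a library was 26 in wild type and 3 in the knockout, against summed gamma counts of 2248 and 609 in the libraries with the fewest, and the smallest alpha count was 0. How the deposited counts treat a read that fits several genes is not stated by the labels, so a row of the alpha or gamma cluster is best read as its own variable exon plus an unknown part of the shared ones, and the rows of a cluster are not independent of each other.

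Gamma transcripts made up most of the protocadherin signal, and they were lower in the knockout. Summed over the 22 gamma rows, the level was 99.1, 97.1 and 86.8 CPM in the wild-type libraries and 46.9, 38.9 and 30.5 CPM in the knockout libraries. The means were 94.3 ± 6.56 CPM and 38.8 ± 8.23 CPM (SD, n = 3 each), 2.43-fold lower in the knockout, and the groups did not overlap. The alpha cluster was barely detected and lay higher in the knockout. Its 15 rows summed to 0.335, 0.628 and 0.309 CPM in wild type and 1.67, 1.72 and 1.25 CPM in the knockout, again with no overlap. These sums rest on 32 and 120 counts in all, a ratio of 3.77 with an exact 95% interval of 2.54 to 5.76 that covers counting error only.

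Beta and unclustered sums overlapped between the groups. The 22 beta rows summed to 2.46, 3.10 and 1.78 CPM in wild type and 3.09, 3.77 and 3.50 CPM in the knockout, a log2 ratio of 0.50. The 12 unclustered genes summed to 7.07 ± 0.405 CPM and 7.72 ± 0.838 CPM (SD, n = 3 each), a log2 ratio of 0.13. As a consequence of these sums, gamma rows held 90.5% ± 0.76 of all protocadherin counts in wild type, against 75.0% ± 2.79 in the knockout (SD, n = 3 each). The alpha share went from 0.40% ± 0.15 to 3.01% ± 0.27, the beta share from 2.33% ± 0.50 to 6.89% ± 1.63 and the unclustered share from 6.80% ± 0.37 to 15.1% ± 1.08. In bulk RNA, fewer cells making a transcript and less RNA per cell cannot be told apart.

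**Figure D1:**
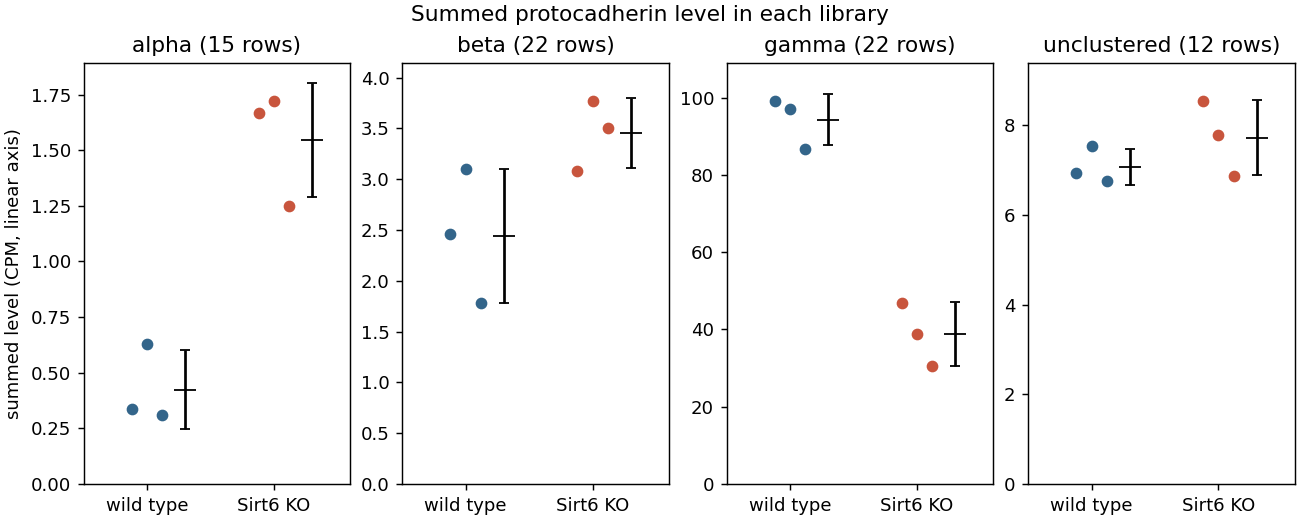
Summed protocadherin level in CPM on a linear axis starting at 0, 1 panel per cluster, with 1 point per library (3 wild type, 3 Sirt6 knockout) and the mean ± SD beside them. Gamma sums fall from 86.8 to 99.1 CPM in wild type to 30.5 to 46.9 CPM in the knockout, alpha sums lie higher in the knockout, and the beta and unclustered groups overlap.

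Levels per length show how uneven the clusters were in these cells. Divided by annotated exon length, the median gamma row stood at 0.798 CPM per kb in wild type and 0.274 CPM per kb in the knockout. The median beta row was at 0.0175 and 0.0278 CPM per kb, the median alpha row at 0.00448 and 0.0159, and the median unclustered gene at 0.00445 and 0.0321. A second scale divided by only the exon length that belongs to no other member. The whole count of a row was kept, with any reads from shared exons, so rows with much shared length read higher on it. The gamma median was then 1.36 CPM per kb in wild type and 0.523 in the knockout. On that own-exon scale Pcdhga8 had the highest gamma level in wild type, 3.15 ± 0.268 CPM per kb, followed by Pcdhga4 at 2.47 ± 0.188, Pcdhga11 at 2.44 ± 0.201, Pcdhga1 at 2.36 ± 0.274 and Pcdhgc3 at 2.26 ± 0.246 (SD, n = 3 each). The last 4 of these differed from one another by less than the SD of Pcdhga1. Pcdhgc5 was the lowest, at 0.347 ± 0.0375 CPM per kb, and Pcdhga6 came next at 0.463 ± 0.0872. The rank of Pcdhga4 depends on the scale, since 66.8% of its exon length is shared. Per kb of all its exons it stood at 0.820 CPM in wild type, beside the gamma median of 0.798 and 1.67 for Pcdhga8. Along the cluster, position and own-exon level had a Spearman rho of -0.22 over 22 rows, a description of rows that share libraries and exons.

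Of the 71 rows, 26 passed the filter on low counts and entered the test (22 gamma, 1 beta and 3 unclustered), and 45 did not. edgeR's quasi-likelihood test over all 14988 genes tested, at an adjusted p threshold of 0.05, called 22 of the 26 lower in the knockout and 0 higher. At an unadjusted p under 0.05, 1 of the 26 (Pcdhb17) was higher, and DESeq2 called 0 of the 26 higher. The lower calls were 21 gamma rows and Pcdh17, and those without a call were Pcdhgb4, Pcdhb17, Pcdh1 and Pcdh19. Of all genes tested, 27.8% were called lower and 27.9% higher. The median log2 fold change was -1.29 over the 26 rows and 0.01 over all genes tested. In 21 of 22 gamma rows every knockout library lay below every wild-type library, as it did for 32.0% of all genes tested, while 31.2% lay above. Because the family was selected on this contrast, nothing further is read from these shares.

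Type A is the largest class of gamma variable exons, and all 12 of its rows fell. Pcdhga1, the first gene of the cluster, stood at 8.57, 7.57 and 6.80 CPM in the wild-type libraries and 3.84, 3.77 and 2.70 CPM in the knockout, a log2 fold change of -1.14 ± 0.17 (SE). Pcdhga2 was at 4.32, 4.77 and 4.60 CPM and then 2.58, 2.99 and 1.45 CPM (-0.93 ± 0.22). Pcdhga3 was at 4.62, 5.57 and 4.40 CPM and then 3.27, 2.21 and 1.45 CPM (-1.02 ± 0.24). Groups were apart for each of these, with the third knockout library the lowest. Pcdhga4 fell further, by 1.67 ± 0.22 on the log2 scale, from 4.14, 3.56 and 3.94 CPM to 1.61, 1.02 and 0.901 CPM. Pcdhga5 had 2.46, 3.05 and 2.43 CPM in wild type and 1.32, 1.27 and 0.851 CPM in the knockout. Pcdhga6, with the fewest reads of the gamma rows, had 0.969, 1.42 and 1.24 CPM against 0.472, 0.450 and 0.150 CPM. That last value rests on 3 counts.

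The middle of the cluster held both the deepest and some of the shallowest falls of type A. For Pcdhga7 the wild-type libraries read 2.94, 3.60 and 2.55 CPM and the knockout libraries 1.86, 1.23 and 1.85 CPM, 1.83-fold lower in the fit. Pcdhga8, the highest gamma gene per length in wild type, dropped from 8.54, 7.20 and 7.92 CPM to 2.30, 2.62 and 1.95 CPM, 3.42-fold lower. Pcdhga9 dropped from 4.81, 3.72 and 3.59 CPM to 1.45, 0.901 and 0.901 CPM, 3.62-fold lower. The fall of Pcdhga10 was the deepest of the 22 gamma rows. It had 5.18, 5.57 and 4.09 CPM in wild type and 1.76, 1.15 and 0.751 CPM in the knockout, 3.87-fold lower. Pcdhga11 fell less, from 6.97, 6.40 and 5.91 CPM to 3.72, 3.81 and 2.55 CPM, and Pcdhga12 least among type A, from 5.81, 5.98 and 6.03 CPM to 3.90, 3.73 and 2.90 CPM, 1.67-fold lower. The median log2 fold change of type A was -1.15.

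**Figure D2:**
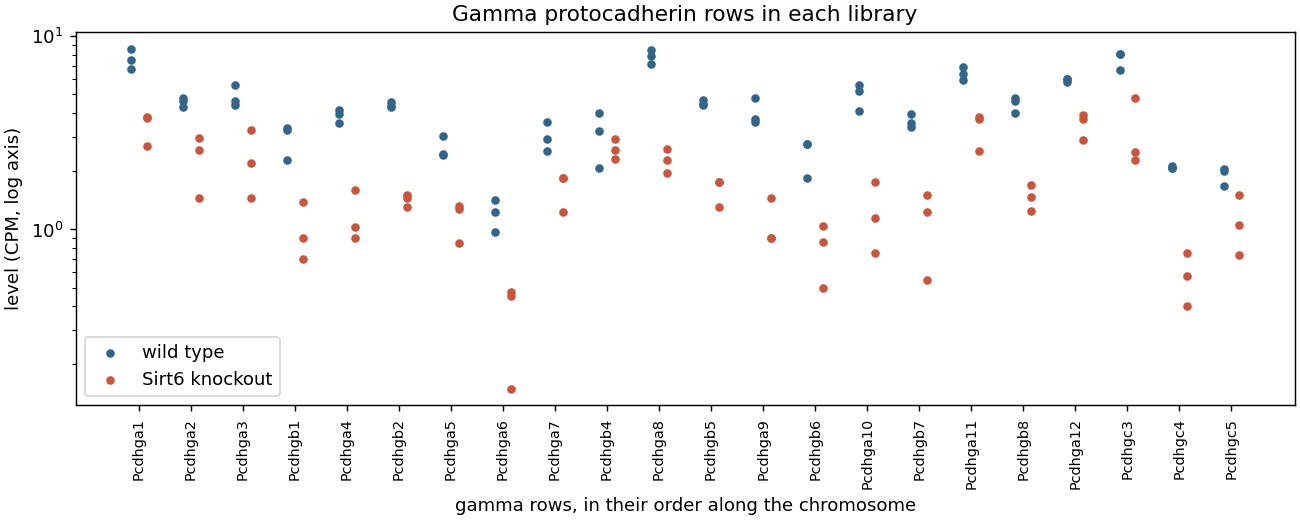
Level of each gamma row in each library, in CPM on a log axis, with rows in their order along the chromosome, blue points for the 3 wild-type libraries and red points for the 3 Sirt6 knockout libraries. The groups separate in 21 of 22 rows and overlap in Pcdhgb4.

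Type B rows fell in 6 of 7 cases, with a median of -1.56. Pcdhgb1 read 3.35, 3.26 and 2.28 CPM in wild type and 1.39, 0.901 and 0.701 CPM in the knockout. Pcdhgb2 was the most even, at 4.29, 4.56 and 4.37 CPM and then 1.45, 1.31 and 1.50 CPM, 3.10-fold lower. Pcdhgb5 had 4.70, 4.39 and 4.48 CPM against 1.76, 1.76 and 1.30 CPM. Falls among these 3 lay within 1 SE of each other. Pcdhgb6 went from 2.76, 2.76 and 1.85 CPM to 1.04, 0.860 and 0.501 CPM. Pcdhgb7 went from 3.58, 3.98 and 3.40 CPM to 1.51, 1.23 and 0.551 CPM, and Pcdhgb8 from 4.81, 4.60 and 4.02 CPM to 1.70, 1.47 and 1.25 CPM. The log2 fold changes of these 6 rows stayed between -1.67 (Pcdhgb7) and -1.47 (Pcdhgb5).

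Pcdhgb4 was the gamma row without a call. It had 4.03, 3.22 and 2.09 CPM in wild type and 2.93, 2.58 and 2.30 CPM in the knockout, a log2 fold change of -0.24 ± 0.23 (SE). The groups overlapped, since the third wild-type library lay below all 3 knockout libraries. Its neighbours in the cluster are Pcdhga7 and Pcdhga8, both of which fell. As the rest of the cluster fell, the part of all gamma counts held by Pcdhgb4 was 3.26% ± 0.83 in wild type, against 6.81% ± 0.67 in the knockout (SD, n = 3 each). Pcdhga12 likewise went from 6.32% ± 0.55 to 9.14% ± 0.72 and Pcdhga11 from 6.81% ± 0.22 to 8.70% ± 0.98. The part held by Pcdhga10 went from 5.23% ± 0.51 to 3.06% ± 0.65.

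Type C genes lie nearest the constant exons and are, as background, the gamma isoforms expressed most widely rather than by promoter choice. All 3 fell, with a median of -1.21. Pcdhgc3, which is known to restrain Wnt signalling and shape dendrites, had 8.13, 8.12 and 6.68 CPM in wild type and 4.82, 2.29 and 2.50 CPM in the knockout (-1.21 ± 0.24, log2 ± SE). The first knockout library stood above the other two. Pcdhgc4, the isoform that keeps developing interneurons alive, had 2.09, 2.09 and 2.12 CPM in wild type and 0.756, 0.573 and 0.401 CPM in the knockout, 3.49-fold lower. Pcdhgc5 had 2.01, 1.67 and 2.05 CPM against 1.51, 0.737 and 1.05 CPM, 1.70-fold lower. Its call was lost when wild-type replicate 1, wild-type replicate 3 or knockout replicate 2 was left out, with edgeR adjusted p of 0.0793, 0.0775 and 0.111. It was lost with total counts as the scaling as well (0.0666).

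The 3 classes held similar shares of the cluster in both groups. Summed per class, type A went from 57.1 ± 3.13 to 23.9 ± 4.95 CPM, type B from 25.6 ± 2.71 to 10.0 ± 1.84 CPM and type C from 11.7 ± 0.713 to 4.88 ± 1.92 CPM (SD, n = 3 each). Type A therefore held 60.6% ± 0.92 of gamma counts in wild type, against 61.7% ± 2.66 in the knockout, type B 27.1% ± 1.04 and 25.9% ± 0.77, and type C 12.4% ± 0.13 and 12.4% ± 2.94. Over the 22 rows, position along the cluster and log2 fold change had a Spearman rho of -0.06, and wild-type level and log2 fold change one of 0.06. The order of the rows was largely shared by the groups, with a Pearson r of 0.85 and a Spearman rho of 0.80 between log2 CPM in wild type and in the knockout. These describe rows that share libraries and exons, and carry no test.

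**Figure D3:**
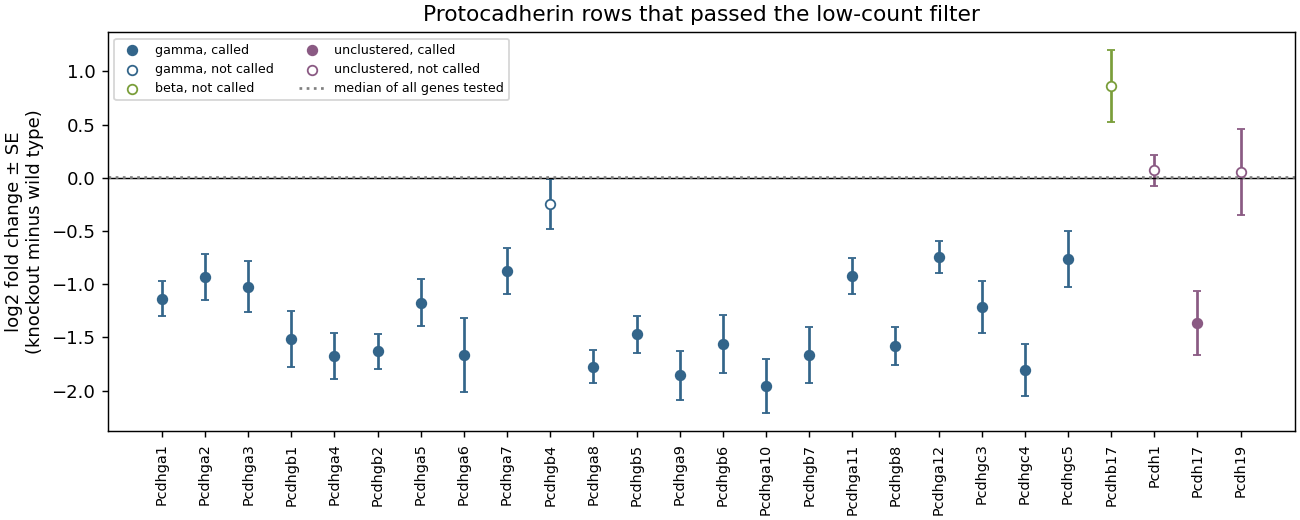
Log2 fold change (knockout minus wild type) ± SE from the edgeR fit for the 26 rows that passed the low-count filter. Filled points were called at an adjusted p under 0.05 and open points were not, and the dotted line is the median of all genes tested. Gamma rows lie between -1.95 (Pcdhga10) and -0.24 (Pcdhgb4), and Pcdhb17, Pcdh1 and Pcdh19 lie at or above 0 without a call.

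The alpha cluster, whose proteins are found mainly on axons, was barely detected. None of its 15 rows passed the filter, no row exceeded 16 counts in any library, 4 had no count in wild type, and Pcdha4 and Pcdha4-g had none in any of the 6 libraries, which allows up to 0.0196 CPM. The knockout mean was above the wild-type mean in 11 rows and below it in 2. Pcdha6 carried the most. It had 1, 1 and 2 wild-type counts, against 13, 16 and 6 in the knockout, a ratio of 8.80 after scaling, with an exact 95% interval of 3.15 to 34.1. Pcdha7 had 1 count in each wild-type library and 7, 5 and 6 in the knockout (ratio 6.04, interval 1.76 to 32.0). Pcdha3 had 0, 1 and 0 counts against 5, 3 and 3 (ratio 11.1, interval 1.61 to 476). Pcdha9 had 1, 0 and 0 wild-type counts against 4, 2 and 1 (ratio 7.04), and its interval of 0.905 to 317 includes 1. Its wild-type replicate 1 and knockout replicate 3 held 1 count each and were separated only by scaling (0.0373 and 0.0501 CPM). Pcdha3, Pcdha6, Pcdha7 and Pcdha9 were the 4 alpha rows whose knockout libraries all lay above the wild-type ones in CPM. Among all rows of the table with a count, 27.6% lay above in this way and 26.0% below.

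The 2 alpha genes of type C, Pcdhac1 and Pcdhac2, lie downstream of the other alpha variable exons, and each overlapped between the groups. Pcdhac1 had 7 wild-type counts, against 1 in the knockout, a ratio of 0.144 whose interval of 0.00319 to 1.12 includes 1. Pcdhac2 had 2 and 9 counts, 8 of the 9 in 1 library, and its interval of 0.937 to 43.1 also includes 1. When all genes with a count were fitted without the filter, Pcdha3, Pcdha6 and Pcdha7 were called higher by edgeR and 0 alpha rows lower (0 also at an unadjusted p under 0.05, and 0 by DESeq2), against 23.2% higher and 22.0% lower over the 19696 genes of that fit.

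Beta genes encode adhesion proteins without a shared tail, and 21 of the 22 rows were too low to be tested. Across the cluster the knockout mean was higher in 18 rows and lower in 4. Pcdhb17 was the row tested. It had 0.671, 0.586 and 0.270 CPM in wild type and 0.787, 0.942 and 1.10 CPM in the knockout, a log2 fold change of 0.86 ± 0.34 (SE) without a call, although the groups did not overlap. Pcdhb14 (16 and 34 counts), Pcdhb1 (0 and 6) and Pcdhb12 (0 and 6) also had every knockout library above every wild-type library, which makes 4 of 22 beta rows, beside 27.6% of all rows with a count. A wild-type count of 0 over 3 libraries allows up to 0.0392 CPM.

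Of the 4 beta rows with a lower knockout mean, Pcdhb16 and Pcdhb20 had groups that did not overlap, and Pcdhb5 (12 and 8 counts) and Pcdhb7 (10 and 8) had groups that did. Pcdhb16 had 6, 6 and 5 wild-type counts, against 2, 1 and 0 after knockout, a ratio of 0.178 with an interval of 0.0333 to 0.614. Pcdhb20 had 5, 8 and 3 counts against 2, 1 and 0, a ratio of 0.189 (0.0352 to 0.659). Non-overlap in this direction thus held for 2 of 22 beta rows and for 26.0% of all rows with a count. Both were called lower in the fit without a filter, as were 22.0% of its genes. In that edgeR fit 0 beta rows were called higher, 4 were higher at an unadjusted p under 0.05 (Pcdhb1, Pcdhb12, Pcdhb14 and Pcdhb17), and DESeq2 called 0 higher. Among the beta rows with more reads, Pcdhb22 had 18 and 24 counts and Pcdhb18 had 18 and 19.

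**Figure D4:**
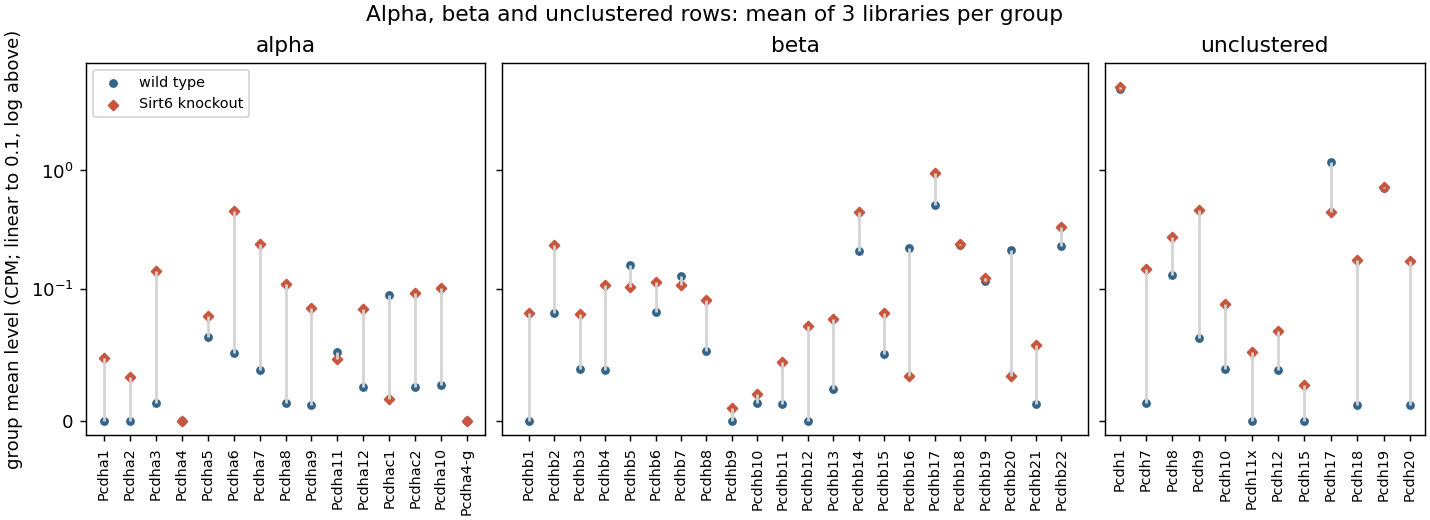
Mean level of each alpha, beta and unclustered row in CPM, linear up to 0.1 and logarithmic above, with circles for the wild-type mean and diamonds for the Sirt6 knockout mean (3 libraries each, no error shown). Most rows sit below 1 CPM, Pcdha6 and Pcdh9 lie well above their wild-type values, and Pcdh17, Pcdhb16 and Pcdhb20 lie below theirs.

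Among the 12 unclustered genes, 3 were expressed enough to be tested, and 1 of them was called. Pcdh1, an epithelial protocadherin and the highest unclustered gene per kb, had 4.55, 5.27 and 4.79 CPM in wild type and 5.67, 4.67 and 4.91 CPM in the knockout (0.07 ± 0.14, log2 ± SE). At 0.554 CPM per kb in wild type it was within the range of the gamma rows. Pcdh17, a delta-protocadherin that recruits the WAVE actin regulator to contacts between axons, had 1.45, 1.13 and 0.966 CPM against 0.504, 0.532 and 0.300 CPM, 2.58-fold lower (-1.37 ± 0.30). It was called lower, and its groups did not overlap. Pcdh19, an X-linked delta-protocadherin whose loss causes epilepsy, had 0.596, 0.879 and 0.657 CPM against 0.598, 1.23 and 0.350 CPM. Its log2 fold change was 0.06 ± 0.40, and the knockout libraries spanned the wild-type ones on both sides.

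Promoters of these genes were looked up so that a called delta-protocadherin, Pcdh17, and an uncalled one, Pcdh19, can be set side by side. RefSeq promoter windows, from 250 bases before to 50 after an annotated start on GRCm38.p6, were matched for 9 unclustered members with 10 windows. Pcdh1, also tested without a call, had no matched window. The window of Pcdh17 is chr14:84443313-84443612 on the plus strand and that of Pcdh19 is chrX:133688944-133689243 on the minus strand. They are shown 5′ to 3′ with each CG dinucleotide, the site of DNA methylation, in capitals.
Pcdh17: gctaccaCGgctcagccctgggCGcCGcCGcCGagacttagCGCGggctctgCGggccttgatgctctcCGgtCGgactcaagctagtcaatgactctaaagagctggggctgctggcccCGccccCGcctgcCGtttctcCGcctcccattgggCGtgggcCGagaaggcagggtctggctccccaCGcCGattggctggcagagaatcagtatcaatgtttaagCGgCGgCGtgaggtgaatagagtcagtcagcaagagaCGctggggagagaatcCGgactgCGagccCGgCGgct
Pcdh19: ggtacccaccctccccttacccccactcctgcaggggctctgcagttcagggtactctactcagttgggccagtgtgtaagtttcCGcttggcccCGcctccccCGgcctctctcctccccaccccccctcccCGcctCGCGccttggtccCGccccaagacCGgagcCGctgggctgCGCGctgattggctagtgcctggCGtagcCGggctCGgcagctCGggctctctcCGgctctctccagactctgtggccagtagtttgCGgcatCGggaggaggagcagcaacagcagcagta

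The letters CG, which read the same on the opposite strand, occur 26 times in the Pcdh17 window and 18 times in the Pcdh19 window. The median over 32851 RefSeq windows of the same length was 7, and 16.9% and 29.7% of them held at least as many as these windows. Among the other members, Pcdh10 had 24, Pcdh18 had 23, Pcdh8 had 14, Pcdh7 had 11, Pcdh15 had 8 and Pcdh20 had 4, and the windows of Pcdh9 had 18 and 19. The CG-rich windows thus belonged to genes with lower, similar and barely detectable transcript levels alike. Of the barely detectable ones, Pcdh18 and Pcdh9 were called higher in the fit without a filter and Pcdh10 was not. That fit called 23.2% of its genes higher. Methylation and factor binding were not measured here.

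The remaining 9 unclustered genes were near the limit of detection. Pcdh9, a neuronal delta-protocadherin, had 3, 0 and 2 counts in wild type and 10, 14 and 10 in the knockout, a ratio of 6.84 with an interval of 2.66 to 22.4. Pcdh20 had 1 wild-type count and 11, 3 and 1 knockout counts (ratio 15.1, interval 2.32 to 635). Its wild-type replicate 1 and knockout replicate 3 held 1 count each and were separated only by scaling (0.0373 and 0.0501 CPM). For Pcdh18 the totals were 1 and 12, and for Pcdh7, which is known for axon growth in the visual system, they were 1 and 11. In each of these 4 genes the knockout libraries all lay above the wild-type ones, and each was called higher in the fit without a filter, where Pcdh17 was again called lower. Over all rows with a count, 27.6% lay above in this way, and the fit without a filter called 23.2% of its genes higher. Pcdh8 had 2, 3 and 5 counts against 18, 5 and 1, so that the first knockout library held most of the difference. Pcdh10 (3 and 7 counts), the endothelial Pcdh12 (3 and 5), Pcdh11x (0 and 5, all 5 in 1 library) and Pcdh15, a component of hair-cell tip links (0 and 2), overlapped between the groups.

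In the authors' deposited table of the same comparison, 21 of the 22 gamma genes with an adjusted p were lower in the knockout at 0.05, and Pcdhgb4 was again the exception. That table called 22.0% of its 18300 genes with an adjusted p lower and 23.8% higher. The authors' deposited table gives Pcdhga10 as -1.87, Pcdhgc5 as -0.72 and Pcdh17 as -1.22. It also called Pcdha6 (1.98) and Pcdha7 (1.41) higher among 12 alpha rows, no row among 20 beta rows, and Pcdh9 (1.84), Pcdh20 (1.34) and Pcdh18 (1.33) higher among 11 unclustered genes in the authors' deposited table.

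Of 27 listed genes that act on the clustered promoters, all tested, 15 fell, 5 rose and 7 had no call, with a median of -0.35. Over all genes tested, 27.8% were called lower and 27.9% higher, with a median of 0.01. Ctcf, whose protein binds these promoters and their enhancers, fell from 176.7 CPM in wild type to 88.1 CPM in the knockout, with an SE of 0.10 on the log2 scale. Rad21, a subunit of cohesin, fell by 0.90 ± 0.09 from 352.1 to 188.9 CPM. Of the other listed cohesin subunits, Smc1a was called higher (0.33 ± 0.11), Stag1 lower (-0.30 ± 0.10), and Smc3 and Stag2 had no call. De novo DNA methylation genes rose, Dnmt3a from 83.9 to 179.0 CPM (1.09 ± 0.10), its cofactor Dnmt3l from 72.7 to 167.7 CPM (1.20 ± 0.09) and Dnmt3b from 138.1 to 195.7 CPM (0.50 ± 0.12). Smchd1, a silencer of the clusters, was at 136.5 and 154.7 CPM with no call (0.18 ± 0.12). Whether any of these bears on the protocadherin values was not tested.

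**Figure D5:**
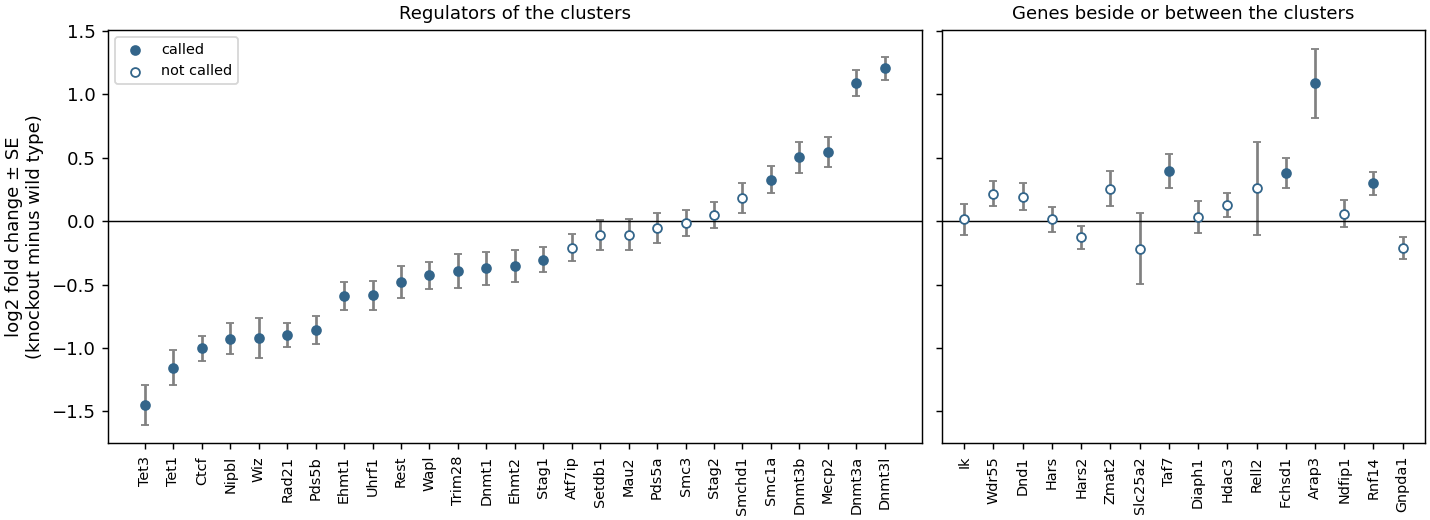
Log2 fold change (knockout minus wild type) ± SE of 27 regulators of the clustered promoters, ordered by value, and of 16 genes beside or between the clusters, in the order of the list. Filled points were called at an adjusted p under 0.05. Ctcf and Rad21 are among the 15 lower regulators, Dnmt3a and Dnmt3l are the highest, and no gene beside the clusters was called lower.

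None of the genes that flank the clusters or lie between them was called lower. Of 16 such genes, all tested, 4 rose, 0 fell and 12 had no call by edgeR, with a median of 0.16, while 1 (Gnpda1) was lower at an unadjusted p under 0.05 and 0 were called lower by DESeq2. Those that rose were Taf7, a subunit of the general transcription factor TFIID (0.40 ± 0.13), Fchsd1 (0.38 ± 0.12), Arap3 (1.09 ± 0.27) and Rnf14 (0.30 ± 0.09), each a log2 fold change with its SE. Hdac3, a histone deacetylase gene near the gamma cluster and outside the naming rule, had 82.0 and 89.6 CPM with no call. Counts of 4 and 0 among 16 stand beside 27.9% and 27.8% for all genes tested.

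Of 22 listed partners of the protocadherin tails, all tested, 4 rose, 7 fell and 11 had no call, with a median of -0.04, beside 27.9% higher and 27.8% lower over all genes tested. Ret, the receptor that alpha and gamma protocadherins bind, rose from 1.17 to 5.37 CPM (2.22 ± 0.25, log2 ± SE). Nckap1 fell by 0.94 ± 0.09 and Wasf1 by 0.46 ± 0.11, both parts of the WAVE complex, and the GTPase gene Rac1 fell by 0.60 ± 0.10. Of the other listed WAVE complex genes, Cyfip1, Wasf2 and Abi2 were called lower, Cyfip2 higher, and Wasf3, Abi1 and Brk1 had no call. In the wider cadherin superfamily 18 of 24 listed genes were tested, of which 7 fell, 4 rose and 7 had no call, with a median of -0.34, beside the same 27.8% and 27.9%. Fat1, a giant cadherin, fell from 515.0 to 163.4 CPM, Celsr1, which acts in planar polarity, from 47.5 to 16.0 CPM, and Cdh4 from 5.30 to 2.40 CPM, while the calsyntenin gene Clstn2 rose from 0.0650 to 0.571 CPM.

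Markers of other cell types moved in the same comparison, in which 27.8% of all genes tested were called lower and 27.9% higher. Of 12 neural markers 9 were tested. Among them 7 rose, Stmn2 the most clearly from 26.3 to 319.6 CPM, and 2 fell, the progenitor genes Pax6 and Sox1. Nes, also a progenitor marker, was among those that rose, from 9.73 to 18.7 CPM. The summed level of the 12 neural markers ran from 131.2 to 140.2 CPM in wild type and from 433.4 to 552.4 CPM in the knockout. Primitive endoderm markers fell in 7 of 7 cases, from sums of 226.1 to 256.0 CPM down to 31.6 to 50.9 CPM. Of these, Lama1 fell from 213.8 to 35.3 CPM and Gata6 from 3.62 to 0.168 CPM. Of 9 feeder fibroblast markers 7 were tested, of which 6 rose and Vim fell. Their sums of 177.9 to 199.5 CPM in wild type and 138.3 to 164.2 CPM in the knockout were mostly Vim (184.3 and 113.5 CPM), while Tagln rose from 2.21 to 21.7 CPM, Col6a2 from 0.239 to 3.27 CPM, Acta2 from 0.0909 to 2.46 CPM and Thy1 from 1.38 to 5.25 CPM. Of 6 trophectoderm markers 4 were tested, of which Krt8, Krt18 and Tfap2c rose and Eomes had no call, with sums of 46.9 to 48.8 and 102.9 to 110.6 CPM. No marker of the 4 lists was at 0 in all 6 libraries, while Postn, a fibroblast marker, was at 0 in wild type. The part of these cell types in the protocadherin values was not tested.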

How the data were processed

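Total RNA libraries of 6 samples were used, 3 wild type and 3 Sirt6 knockout, with groups and replicate numbers taken from the sample titles. The deposited table holds whole-number counts per gene symbol. Build mm9 and the tools HTSeq 0.6.1, TopHat2 2.0.10 and DESeq2 appear in the submitters' processing notes, without roles. Strand and overlap rules of the counting are not stated there. The authors' deposited comparison table gives a log2 fold change, its standard error and an adjusted p-value per gene, per the file headers. It is quoted only where named.

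All 23366 rows were fitted with edgeR 4.0.16 in R 4.3.3 (filterByExpr, TMM, quasi-likelihood test, two-sided), which tested 14988 genes at a Benjamini-Hochberg adjusted p of 0.05. The SE is the log2 fold change divided by the square root of F. The script was tested on simulated data. Count ratios carry exact 95% intervals. The common biological coefficient of variation was 0.115, and every pair of libraries differed by more than counting noise (smallest chi-square over its degrees of freedom, 3.73). This ratio ran from 3.73 to 11.2 between wild-type libraries and from 20.8 to 87.6 between knockout libraries, which were thus less alike. Between the groups it ran from 117 to 196. Replicates may be technical, and p-values then reflect no more than the spread among these 6 samples.

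The members and lists were chosen with earlier results of these data known. Members were named with per-library values if a group mean reached 1 CPM or the gene was called. Up to 4 called genes per list with the smallest adjusted p, and Ctcf, Dnmt3b, Smchd1 and Sirt6 in any case, were named, and any other gene was named after its values were seen. Exon lengths came from GRCm38 (GENCODE M21), a build other than that of the counts. Alternatives were DESeq2 size factors or total counts as scaling, other filters, DESeq2 1.42.0, a replicate block, libraries left out in turn, summed clusters, and other lengths, with own-exon length added after the data were seen. Values of some listed marker genes are not reported here.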

Additional observations from a re-analysis of the deposited data

How the results depend on the processing

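The 22 lower calls all held with DESeq2 size factors, with no filter, with DESeq2 and with the replicate block. Total counts as scaling, which shifts all genes by 0.13 on the log2 scale, kept 21 and lost Pcdhgc5. A minimum mean of 1 CPM kept 20, since Pcdh17 and Pcdhga6 were then not tested, and 17 passed an added minimum of 1 for the size of the log2 fold change. Leaving out 1 library kept 21 or 22. Pcdhgb4 had no call under any setting run, between -0.47 and -0.00, with adjusted p of 0.0772 to 0.996. Members called higher, 0 in the report, were 1 with total counts (Pcdhb17), 7 with no filter (of 31 calls, 24 of them lower), 2 with DESeq2 (Pcdh9 and Pcdha6), and 0 to 3 with a library left out, the 3 without wild-type replicate 1 (Pcdh9, Pcdha6 and Pcdhb17). Without a filter and with DESeq2, rows enter that the filter removes. For the other settings the cause was not tested. With the alpha, beta and gamma rows summed before the fit, 2 of 3 clusters were called, 1 lower (gamma, -1.28 ± 0.14, log2 ± SE) and 1 higher (alpha, 1.89 ± 0.31), and beta was not (0.49 ± 0.21).

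The labels do not say whether same-numbered replicates are paired. Deviations from the group means correlated at 0.208, -0.0250 and 0.201 between same-numbered samples. Between samples of different number the range was -0.216 to 0.0346. Each sample did not correlate best with its own number in every case. With the replicate block, 23 members were called, 22 lower and 1 higher (Pcdhb17).

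The alpha log2 ratio of 1.87 was 0.52 as the median of its rows' ratios, where rows near 0 are held down by the added 0.1 CPM. The unclustered log2 ratio of 0.13 was 0.25 with total counts, 0.45 as a median of rows and 0.26 without Pcdh1. The sign of Pcdh1 reversed to -0.016 without knockout replicate 1, with no call either way. Median gamma level in wild type was 0.900 CPM per kb by longest transcript. Depth limits the alpha and beta rows, with at most 16 and 25 counts each in any library.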
